A study of Mus musculus with 9 samples.

Results

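Actb encodes cytoplasmic beta-actin and Tuba1b encodes an alpha-tubulin, and both genes were followed here across fetal liver, adult liver and liver cancer of the mouse. They are 2 of the 15 genes that could be named on these arrays, which carry 60915 probes in all. The probes were found by their RefSeq accessions, NM_007393.3 for Actb and NM_011654.2 for Tuba1b, and each was printed 20 times per array. The study measured total RNA on 1-colour Agilent arrays, 1 array per sample, to find transcripts that fetal liver and tumour have in common. Fetal livers came from embryos of day 17.5 (3 samples, sex not given). Adult livers came from males aged 2 months (3 samples). Liver cancer tissue came from males aged 1 year (3 samples), whose tumours were induced with the carcinogen DEN (diethylnitrosamine). Between adult liver and liver cancer, the effects of age, of DEN and of the tumour itself cannot be told apart. Replicates are said to be independent, but animals and litters are not named, so p-values measure only the spread between these samples.

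Actin and tubulin build the main filaments of the cytoskeleton. Beta-actin polymerises into thin filaments that carry cell shape, adhesion and movement. Alpha-tubulin pairs with beta-tubulin, and the pairs assemble into microtubules, which carry transport in the cell and form the mitotic spindle. In liver, both are found in hepatocytes as well as in blood-forming, stellate, endothelial and immune cells. Actb is also widely used as a reference gene, on the assumption that its RNA level is stable. Of 48 other cytoskeleton genes looked for, among them the tubulin and actin paralogs, tropomyosins, cofilin and stathmin, 0 had a named probe. Of 40 markers of liver cell types and proliferation only Tfrc had one, so the labelled tissues were not checked against their defining markers. In bulk tissue, more cells of a type and more RNA per cell cannot be told apart.

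RefSeq's promoter table held 1 of the 2 genes, Tuba1b, so only its sequence is shown. The run gives the 250 bases before its start at chr15:98934391-98934640 (GRCm38.p6, minus strand), 5′ to 3′, with matches to the GC box in capitals.
Tuba1b: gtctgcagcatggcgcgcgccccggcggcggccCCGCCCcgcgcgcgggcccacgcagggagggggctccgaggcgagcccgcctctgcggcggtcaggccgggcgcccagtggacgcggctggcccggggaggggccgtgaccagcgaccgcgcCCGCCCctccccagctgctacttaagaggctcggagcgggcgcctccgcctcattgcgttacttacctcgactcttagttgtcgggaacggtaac
The stretch is 75.6% G and C. The GC box (GGGCGG, searched on both strands) matched at 2 places, both on the opposite strand. Of 32851 promoter windows of the same length, 32.7% hold at least 1 such match. The CCAAT box (CCAAT), the TATA box (TATAAA) and the CArG box had 0 matches in this window. They are found in 33.8%, 12.4% and 1.47% of all windows. Tuba1b lies beside its paralogs Tuba1a and Tuba1c in the RefSeq annotation. Without the probes' own sequences, signal of near-identical actin or tubulin copies could not be separated, and the values of both genes are uncertain to that extent.

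The arrays came from 2 scans: 7 arrays in the first, comprising all fetal and adult arrays and liver cancer replicate 1, and liver cancer replicates 2 and 3 in the second. The second scan was brighter. The 75th percentile of log2 signal over all probes was 6.46 to 7.55 on arrays of the first scan, against 8.68 and 8.47 on those of the second. Probes well above background made up 40.5% to 54.8% of all probes on the former and 69.3% and 67.8% on the latter. Results on liver cancer are therefore given over all arrays and within the first scan.

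Both probes were bright everywhere. All 180 spots of each gene over the 9 arrays were well above background, and 0 were saturated. Before any scaling between arrays, the geometric mean of the Actb spots was 69632, 74010 and 67817 in fetal liver and 15330, 16660 and 16445 in adult liver. It was 34208, 71248 and 66388 on liver cancer replicates 1, 2 and 3. In these unscaled signals, liver cancer replicates 2 and 3, from the brighter second scan, lay in or near the fetal range. Replicate 1 lay between the fetal and the adult arrays. Scan brightness is not removed here, so these positions do not compare levels between groups. After the scaling used below, the positions reversed. Actb on replicates 2 and 3 (7.44 and 7.55) then lay just above the highest adult array (7.39), and on replicate 1 (8.61) just under the lowest fetal array (8.62). The geometric mean of the Tuba1b spots was 220951, 237588 and 218816 in fetal liver and 14932, 15513 and 15155 in adult liver. In liver cancer it was 65834, 93888 and 85863, between the other groups on every array. The brightest Tuba1b spot, in fetal liver, reached 256774, against a scanner limit of 778202. Spot signals were 307 to 2740 times the local background for Actb and 277 to 5020 times for Tuba1b, as medians per array.

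**Figure D1:**
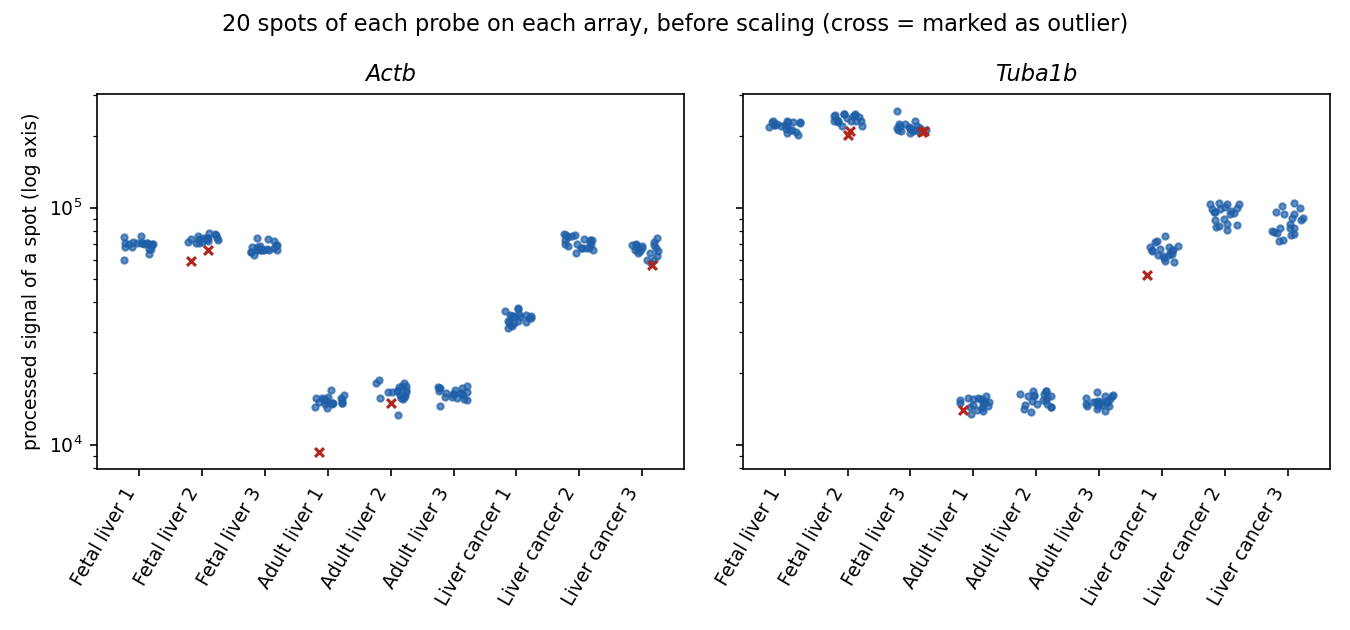
Processed signal of each of the 20 spots per probe and array on a log axis, before scaling between arrays; crosses are spots marked as outliers. Spots of an array lie close together, with Tuba1b at mean signals of 14932 to 15513 in adult liver and 218816 to 237588 in fetal liver.

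The spread among the 20 spots was small. Their SD within an array was 0.04 to 0.11 log2 for Actb and 0.06 to 0.16 log2 for Tuba1b, which gives standard errors of 0.0093 to 0.025 and 0.013 to 0.036 for the array means. Outlier marks removed 5 of 180 Actb spots and 6 of 180 Tuba1b spots. Spots in the upper and lower parts of an array differed by at most 0.06 log2 for Actb and 0.14 for Tuba1b. The spread that counts for the comparisons is that between arrays, and the spots of 1 array are not replicates of a group.

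Levels between arrays were compared as log2 signal minus the 75th percentile of the array. On this scale Actb stood at 8.90, 8.62 and 9.01 on the fetal arrays, at 7.39, 7.31 and 7.22 on the adult arrays, and at 8.61, 7.44 and 7.55 on liver cancer replicates 1, 2 and 3. The order was fetal liver, liver cancer, adult liver, and no 2 groups overlapped. The margins were narrow on both sides of liver cancer: replicate 1 lay just under the lowest fetal array and replicate 2 just above the highest adult array. Tuba1b stood at 10.57, 10.31 and 10.70 on the fetal arrays, at 7.35, 7.20 and 7.11 on the adult arrays, and at 9.55, 7.84 and 7.92 on the liver cancer arrays. The order of the groups was the same, again with no overlap, and liver cancer replicate 1 lay apart from replicates 2 and 3. A lack of overlap was common among tested probes. Fetal liver lay wholly above adult liver for 33.5%, liver cancer above adult liver for 21.5%, and liver cancer below fetal liver for 29%.

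**Figure D2:**
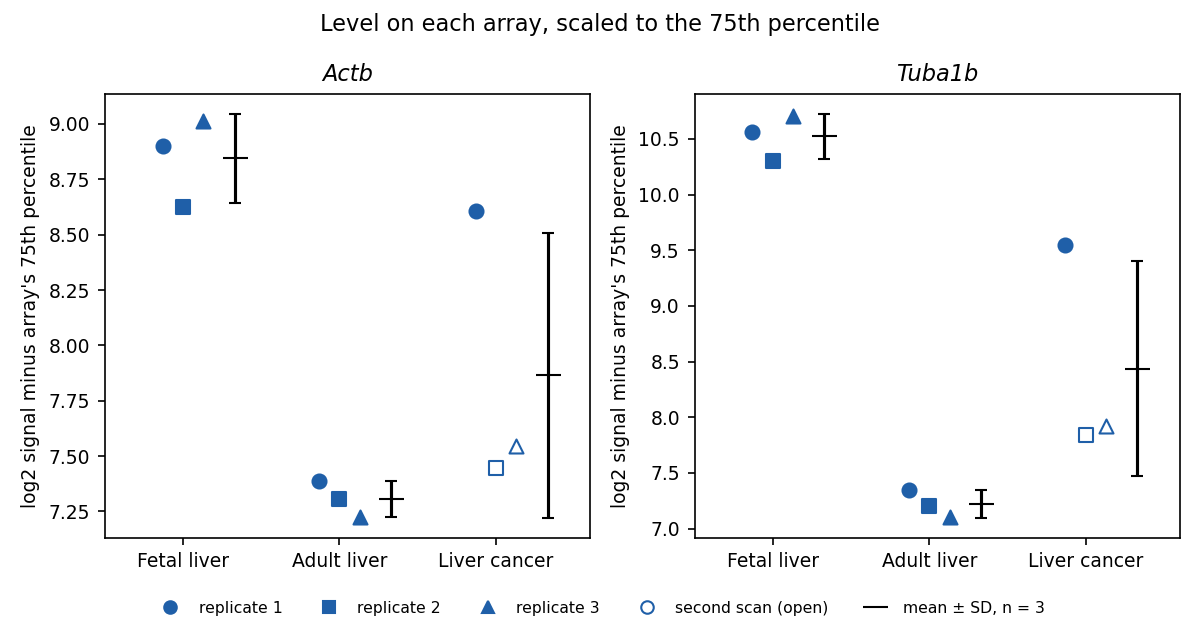
Level of Actb and Tuba1b on each array, as log2 signal minus the 75th percentile of the array; filled points are the first scan, open points the second, and bars are mean ± SD of 3 arrays. Fetal arrays are highest and adult arrays lowest for both genes, and liver cancer replicate 1 lies above replicates 2 and 3.

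In the order fetal liver, adult liver, liver cancer, group means of Actb were 8.85 ± 0.20 (SD, n = 3), 7.31 ± 0.08 and 7.87 ± 0.64. Those of Tuba1b were 10.53 ± 0.20, 7.22 ± 0.12 and 8.44 ± 0.97. In adult liver the SD of Actb was exceeded by most probes, with 16.2% of the 34103 tested probes having a smaller one. In fetal liver both genes were as variable as the median probe (0.20). In liver cancer the median SD over tested probes was 0.47, and 68.3% of probes had a smaller SD than Actb and 87.4% a smaller one than Tuba1b.

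Fetal liver was set against adult liver, as developing against mature organ, and both cytoskeleton genes rose. Actb was 2.91-fold higher in fetal liver, a log2 difference of 1.54 ± 0.31 (SE, n = 3 per group; 95% interval 0.85 to 2.23; limma adjusted p = 0.00255). Tuba1b was 9.88-fold higher, at 3.31 ± 0.41 (2.37 to 4.24; limma adjusted p = 0.00015). Calls required both a 2-fold difference and an adjusted p below 0.05, and 21.2% of all tested probes were called higher in this comparison. Groups lay apart with fetal liver higher for 33.5% of probes, so a lack of overlap is common here. In size, 14.8% of tested probes had a higher log2 difference than Actb and 3.77% a higher one than Tuba1b. Tfrc, the one identified marker, which is high in developing red blood cells, was higher in fetal liver as well, at 2.99 ± 0.26 (limma adjusted p = 1.55e-05). Its part in the rise of both genes was not tested. All 6 arrays belong to the first scan. Both calls held under all 32 alternatives, with differences of 1.15 to 2.13 for Actb and 2.91 to 3.89 for Tuba1b. Some of these, such as leaving out a liver cancer array, do not alter the fetal and adult values and could not move the differences.

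Liver cancer was set against adult liver, and over all 9 arrays neither gene was called. The log2 difference was 0.56 ± 0.31 for Actb (SE, n = 3 per group; 95% interval -0.13 to 1.25; limma adjusted p = 0.194). It was 1.22 ± 0.41 for Tuba1b (0.28 to 2.15; limma adjusted p = 0.0524). These errors share the spread of all 3 groups. Fitted on the 2 compared groups only, the SE was 0.35 for Actb and 0.47 for Tuba1b (limma adjusted p = 0.283 and 0.111). Of all tested probes 11.6% were called higher, and 21.5% had groups that lay apart with liver cancer higher, as both genes did. A miss does not show that the levels were alike, since the interval of Actb reaches above a 2-fold rise and that of Tuba1b above a 4-fold one. Among arrays of the first scan, which leaves replicate 1 as the sole liver cancer array, assumed to vary like the other groups, both were called. Actb was then at 1.30 and Tuba1b at 2.33 (limma adjusted p = 0.00623 and 0.000931), and 8.87% of probes were called higher. Without replicate 1, the second scan's 2 liver cancer arrays lay 0.19 (Actb, limma adjusted p = 0.336) and 0.66 (Tuba1b, limma adjusted p = 0.0111) above adult liver. Tuba1b there passed the adjusted threshold and missed the minimum fold, and 17.2% of probes were called higher. Other settings put the differences lower over all arrays: Actb was at 0.28 with array median scaling, 0.37 with quantile normalization and 0.25 with array weights, and Tuba1b at 0.74 with array weights (limma adjusted p = 0.0133, short of the minimum fold). Tfrc, unlike the members, was called over all 9 arrays, at 1.29 ± 0.26 (limma adjusted p = 0.006), and its part in their values was not tested.

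That gap between liver cancer arrays was shared by most named genes. On the 75th percentile scale the mean of replicates 2 and 3 lay below replicate 1 for 13 of the 15 named genes. The difference was -1.11 for Actb and -1.67 for Tuba1b, and the median of the same difference over all tested probes was -0.20. Hprt, Gusb, Ppia and Gapdh, genes of metabolism and protein folding often used as references, moved the same way. In fetal liver their mean level was 8.33 ± 0.12 (SD, n = 3), and in adult liver it was 8.30 ± 0.01. On the liver cancer arrays it was 8.47, 7.38 and 7.45. Brightness, scan and tumour sample vary together between these arrays and cannot be told apart.

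Actb was therefore also given relative to the mean of these 4 genes on the same array. On that scale it stood at 0.53, 0.43 and 0.59 on the fetal arrays, at -0.93, -0.999 and -1.06 on the adult arrays, and at 0.13, 0.06 and 0.10 on the liver cancer arrays. The 3 liver cancer arrays now lay within 0.07 of each other, across both scans, and between the other groups without overlap. The share of all probes without overlap was not computed on this scale. Tuba1b stood at 2.20, 2.12 and 2.28 on the fetal arrays, at -0.97, -1.101 and -1.18 on the adult arrays, and at 1.08, 0.46 and 0.47 on the liver cancer arrays. Its replicate 1 remained above replicates 2 and 3, with an SD of 0.36 over liver cancer against 0.97 on the 75th percentile scale.

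**Figure D3:**
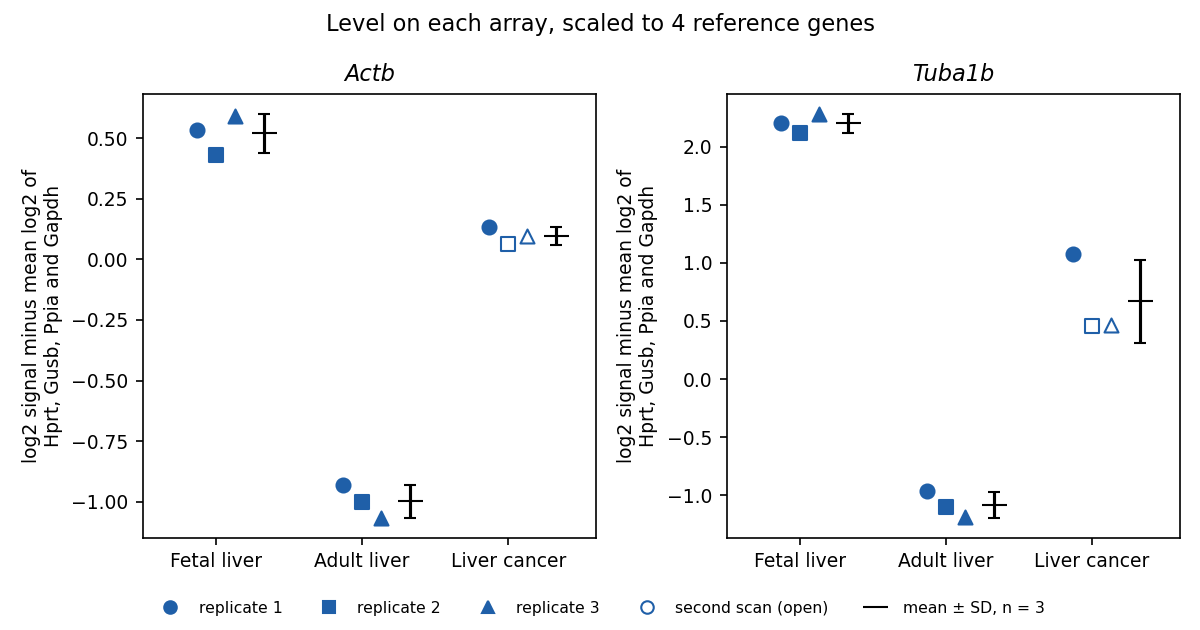
Level of Actb and Tuba1b on each array relative to the mean log2 signal of Hprt, Gusb, Ppia and Gapdh on that array; open points are the second scan and bars are mean ± SD of 3 arrays. Actb in liver cancer lies at 0.06 to 0.13 on all 3 arrays, between adult and fetal liver.

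Scaled in this way, both genes were called higher in liver cancer than in adult liver. Actb was at 1.095 ± 0.15 (SE, n = 3 per group; 95% interval 0.76 to 1.43; limma adjusted p = 0.00112) and Tuba1b at 1.75 ± 0.21 (1.27 to 2.23; limma adjusted p = 0.000663). This scale moves all probes: the median difference of tested probes went from 0.01 to 0.55, 17.3% were called higher and 5.96% lower, against 11.6% and 12.5% on the 75th percentile scale. Relative to the median of tested probes, the differences were 0.55 and 0.54 for Actb on the 2 scales and 1.20 on both for Tuba1b. Both scales subtract 1 constant per array, so this agreement follows from the method. With normexp background correction these values were 1.37 for Actb and 2.06 for Tuba1b, and with quantile normalization 0.44 and 1.06. What differed between the 2 scales was the spread between liver cancer arrays and the median of all probes. The call of Actb depended on the choice of genes. Scaled to the 13 other named genes, Actb was at 0.80 (limma adjusted p = 0.00938), short of the minimum fold. Tuba1b was called there at 1.45 (limma adjusted p = 0.00445). Single reference genes gave 0.75 to 1.31 for Actb, called with Hprt, Ppia and Gapdh and under the minimum fold with Gusb. They gave 1.41 to 1.96 for Tuba1b, called with each of the 4. Single genes also moved all probes. Of 34103 tested probes, 9540 were called higher and 1665 lower with Hprt, and 6178 and 1355 with Gapdh. Ppia gave 5778 and 2188, and Gusb 3401 and 3256, against 3958 and 4247 on the 75th percentile scale.

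**Figure D4:**
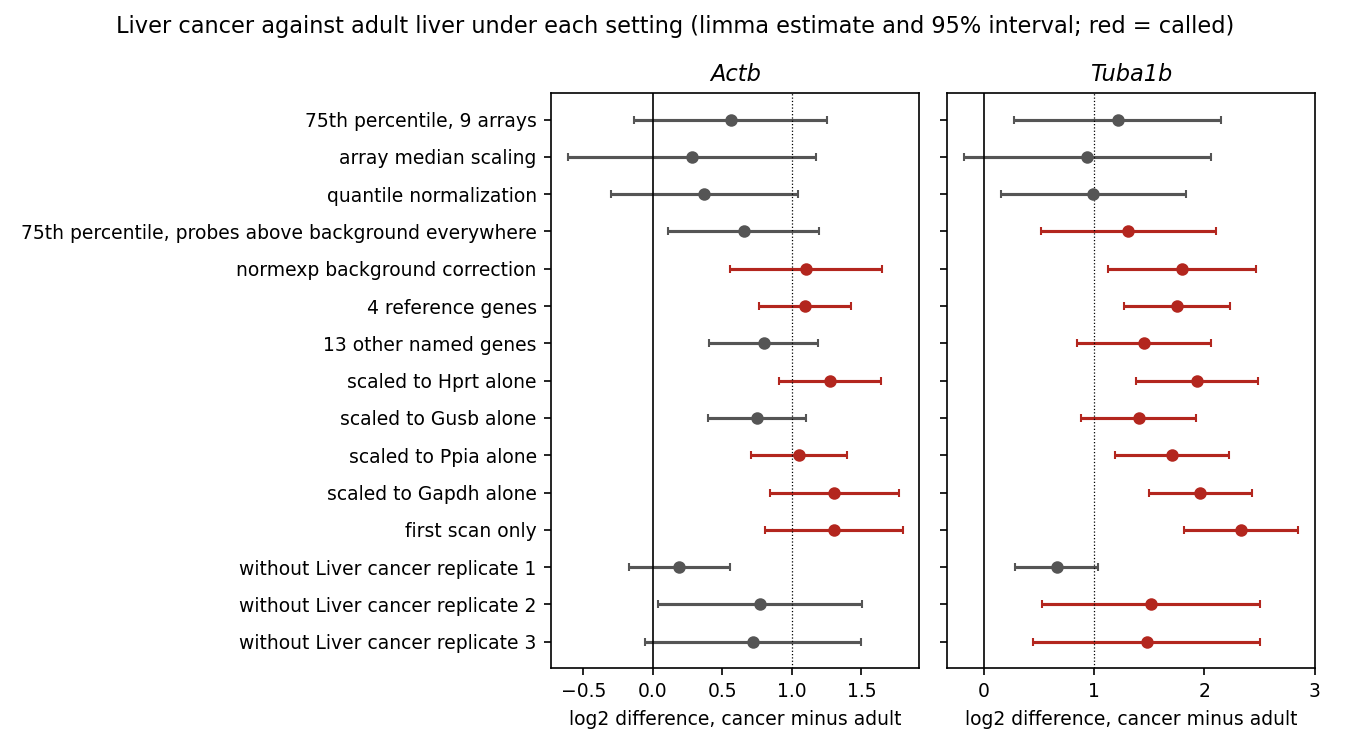
Log2 difference between liver cancer and adult liver for Actb and Tuba1b under 15 settings, with 95% intervals from limma; red marks a call and the dotted line the 2-fold minimum. All estimates are above 0, from 0.19 to 1.31 for Actb and from 0.66 to 2.33 for Tuba1b.

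The direct comparison of liver cancer with fetal liver was made to see how far the tumours reached the fetal level, and Tuba1b was lower. Its log2 difference was -2.09 ± 0.41 (SE, n = 3 per group; 95% interval -3.03 to -1.15; limma adjusted p = 0.0024), a 4.25-fold lower level in liver cancer. Actb was at -0.98 ± 0.31 (-1.67 to -0.29; limma adjusted p = 0.024), past the adjusted threshold but short of the minimum fold. Of all tested probes 22% were called lower in liver cancer, and 29% lay apart with liver cancer lower, as both genes did. Tfrc was lower in liver cancer too, at -1.70 ± 0.26 (limma adjusted p = 0.000552). Within the first scan Tuba1b was at -0.97 (limma adjusted p = 0.0103), also just short of the minimum fold, and Actb at -0.24 (limma adjusted p = 0.379), where 20% of probes were called lower. Relative to the 4 reference genes Tuba1b was called at -1.53 ± 0.21 (limma adjusted p = 0.000465) and Actb, at -0.42 ± 0.15, was not (limma adjusted p = 0.0397), where 13.9% of probes were called lower. Scaled to Hprt alone Actb turned to 0.13, without a call. Each group is used in 2 of the 3 comparisons, so the comparisons are not independent.

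The log2 difference between Tuba1b and Actb on the same array is free of any scale factor of that array, and comparing it between groups shows whether the genes differed equally. It was 1.67, 1.68 and 1.69 on the fetal arrays, -0.04, -0.10 and -0.12 on the adult arrays, and 0.94, 0.40 and 0.37 on the liver cancer arrays. The 3 groups did not overlap, and the fetal arrays were nearly identical. It was larger in fetal than in adult liver by 1.77, or 3.4-fold. It was larger in liver cancer than in adult liver by 0.66, or 1.58-fold, and liver cancer minus fetal liver gave -1.11. Each had p = 0.1 in an exact two-sided permutation test, the smallest value that 3 arrays against 3 can give, so these differences could not pass a threshold of 0.05. Leaving out liver cancer replicate 1 gave 0.47 against adult liver, and the first scan alone gave 1.03.

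**Figure D5:**
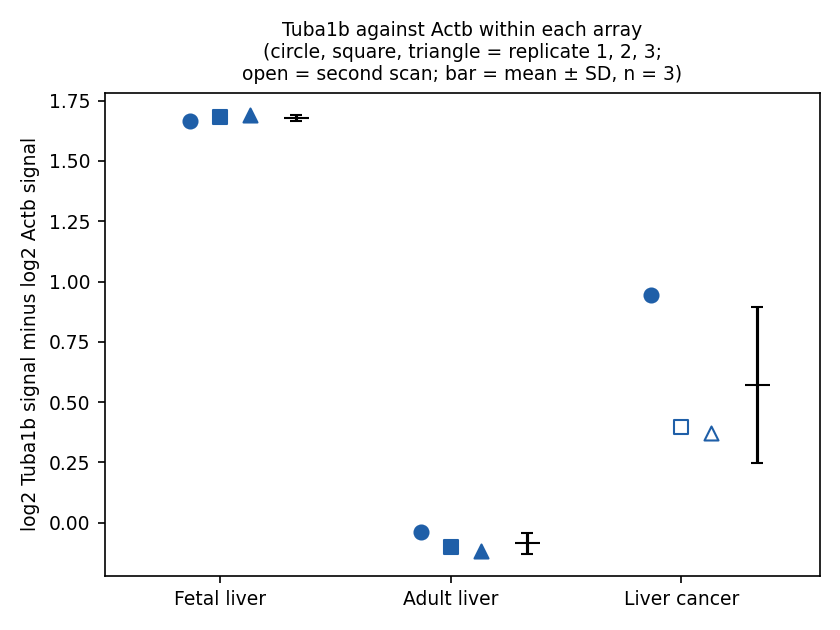
Log2 signal of Tuba1b minus log2 signal of Actb on each array; open points are the second scan and bars are mean ± SD of 3 arrays. Fetal arrays lie at 1.67 to 1.69, liver cancer arrays at 0.37 to 0.94 and adult arrays at -0.12 to -0.04.

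The genes ranked the 9 arrays alike. On the 75th percentile scale Pearson's r between Actb and Tuba1b was 0.99 over the 9 arrays and Spearman's rho was 1. It was 0.99 over the 7 arrays of the first scan and 0.97 relative to the reference genes. These are descriptions: the arrays fall into groups, and the values share the scale factor of each array. Of the 34101 tested probes besides these, 14 (0.0411%) followed Actb more closely than Tuba1b did, and 55 (0.161%) followed Tuba1b more closely than Actb did. Both members are averages over many spots per array, which nearly all other probes are not. Averaging lowers measurement noise, so these percentages do not compare like with like. They cannot show whether the pair was unusually close. Among the other named genes, Rpl13a, a ribosomal protein gene, and Tfrc, the transferrin receptor that takes up iron, were by Pearson's r the nearest to both. Their r was 0.97 and 0.96 with Actb and 0.99 and 0.99 with Tuba1b. Tfrc also had a rho of 1 with both members, so the shared ranking is not particular to the pair. By rho another named gene was nearer to both members than Rpl13a, at 0.983 against 0.917. Relative to the reference genes, r of Tfrc was 0.987 with Actb and 0.982 with Tuba1b, against 0.972 between the members. That of Rpl13a was 0.963 with Actb and 0.973 with Tuba1b. On the 75th percentile scale Gk, glycerol kinase, ran most clearly the other way, with r of -0.88 with Actb and -0.93 with Tuba1b. Relative to the reference genes its r was -0.701 and -0.841. Gapdh, itself a reference gene, then had -0.793 with Actb and -0.756 with Tuba1b.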

How the data were processed

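The authors deposited 1 scanner file per sample, with processed signal intensity made by Agilent Feature Extraction 11.0.1.1, per the file headers, which is background-subtracted and not scaled between arrays. Log2 signals of the unmarked spots of each probe were averaged, less the array's 75th percentile. Control spots (1439) and 15 negative control probes were left out. A probe was tested if well above background on at least 3 arrays and usable on at least 2 arrays per group (34103 probes, 56% of all), a probe of many spots counting as above background when 50% or more of its spots were. The comparisons were fitted over all 9 arrays with limma 3.58.1 (R 4.3.3, with the package data.table, version 1.17.8), 1 mean per group, with Benjamini-Hochberg adjustment over all tested probes. The procedure was also tested on simulated data. Single values were compared by exact permutation tests. The number of arrays limits precision.

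Members, gene lists and alternatives were chosen with earlier results of these data known. Named were, for each member, the 3 most correlated of the other 14 named genes (the other member among them), the least correlated one, and 4 reference genes. Normexp correction (offset 50) used median signals in place of mean signals. Figures used Python 3.11.15 and matplotlib 3.10.9.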

Additional observations from a re-analysis of the deposited data

How the results depend on the processing

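Log2 differences of Actb and Tuba1b kept their sign under all 32 alternatives except that of Actb between liver cancer and fetal liver, which was 0.13 when scaled to Hprt alone. Their calls between fetal and adult liver did not change. Between liver cancer and adult liver, differences were smaller with array median scaling (Actb 0.28, Tuba1b 0.94), quantile normalization (0.37 and 0.995) and array weights (0.25 and 0.74), without calls. In the same comparison Actb was called with normexp (1.1), scan as a block (1.30), the first scan only (1.30), the 4 reference genes (1.095; 1.13 in the first scan), Hprt (1.28), Ppia (1.05) or Gapdh (1.31) alone, and no scaling (1.76). Tuba1b was called with the same settings (1.80, 2.33, 2.33, 1.75, 2.16, 1.93, 1.71, 1.96 and 2.41), with Gusb alone (1.41), the other named genes (1.45), the 75th percentile of probes above background on all arrays (1.31), only such probes tested or trended variances (1.22 each) and spots of the lower rows (1.26). Of 34103 tested probes, 5706 were called higher in liver cancer than in adult liver without scaling and 435 lower. With normexp 2658 were called higher, with Hprt alone 9540, with Ppia alone 5778 and with Gapdh alone 6178, against 3958 on the 75th percentile scale. Between liver cancer and fetal liver, Actb was called with array median scaling (-1.21), quantile normalization (-1.36) and array weights (-1.33). In these settings 8704, 8131 and 8678 probes were called lower, against 7512 on the 75th percentile scale. Tuba1b missed the minimum fold with scan as a block or the first scan only (-0.97 each) and with Hprt alone (-0.98). For liver cancer, scan as a block and the first scan only both rest on replicate 1 alone and count as 1 estimate. The reference genes within the first scan rest on that array too. Single reference genes, no scaling, and reference genes within the first scan were chosen after seeing the data. The cause of these changes was not tested.

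Leaving out 1 array in turn gave 1.46 to 1.65 and 3.22 to 3.42 for Actb and Tuba1b between fetal and adult liver, 0.19 to 0.77 and 0.66 to 1.51 between liver cancer and adult liver, and -1.35 to -0.77 and -2.65 to -1.79 between liver cancer and fetal liver. Tuba1b became called in liver cancer against adult liver without liver cancer replicate 2 (1.51) or 3 (1.48). Actb became called against fetal liver without fetal replicate 2 (-1.09) or liver cancer replicate 1 (-1.35). Probes called ranged over 12601 to 13978, 6555 to 12117 and 13259 to 16424. Tuba1b minus Actb ranged over 1.75 to 1.79, 0.47 to 0.76 and -1.29 to -1.01. Counts of called probes were 7189, 4558 and 7846 when only probes above background on all arrays were tested. Fewer probes were tested there, so these counts cannot be set against the others. Counts fell to 5949 between fetal and adult liver with normexp. Without scaling they fell to 8911 between fetal and adult liver and to 8608 between liver cancer and fetal liver.

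Samples share replicate numbers only as numbers: deviations of same-numbered samples correlated at -0.17 to 0.31. With the replicate block, the difference of Tuba1b between liver cancer and adult liver (1.22) was called at a limma adjusted p of 0.0453, and no other call of the 2 genes changed.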
